A study of Homo sapiens with 4 samples.

Results

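The genes of human chromosome 7 were followed along their position in MDA-MB-231, a breast cancer cell line of mesenchymal character, and in its brain metastatic derivative MDA-MB-231Br. A named row of the deposited expression table was a member when its symbol lies on chromosome 7 in the GENCODE annotation and its mean over the 4 libraries was at least 10. This gave 695 members, 233 on the short arm and 462 on the long arm, of 736 chromosome 7 rows and 15279 named rows in all. Members were thus chosen by their mean level, and levels near that limit are given as description: ZNF727 at 10.2 and TMEM139 at 10.3 were just inside, and CLDN3 at 9.92 and MGAM at 9.65 just outside. The 41 rows below 10 were not followed further. Of the members, 692 had enough reads to be tested, 232 on the short arm and 460 on the long arm. ANKRD61, AC008267.2 and TMEM139 did not.

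The parental group was 2 libraries of MDA-MB-231 and the brain metastatic group 2 libraries of MDA-MB-231Br. Both lines grew in DMEM with fetal bovine serum, the labels name no treatment or engineered allele, and total RNA of each was sequenced. The libraries are called A and B within each line by their order in the table. Nothing in the labels says that they came from separate cultures, so a p-value here reflects how far these libraries scatter, and that scatter may be technical. In RNA from bulk cultures, a change in the cells that make a transcript and a change in RNA per cell cannot be told apart. The derivative is a single cell line, so the comparison is between these cultures.

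A chromosome is divided by its centromere into a short and a long arm. In cancer cell lines whole arms or shorter stretches are often gained or lost, and RNA of the genes on them then tends to move together. DNA copy number was not measured here. The short arm carries EGFR, a growth factor receptor, and genes of the insulin-like growth factor binding proteins. The long arm carries MET, BRAF and the caveolin genes, and the Williams region, whose loss on one copy causes a developmental syndrome.

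Levels are normalized read values, reads multiplied by 1 factor per library, compared for each gene between libraries and not between genes. The 4 libraries held 30771290 and 27554570 reads in named genes for the parental line and 28107820 and 25835225 for the brain metastatic line. Vimentin, a mesenchymal filament protein, had 42476 and 38423 against 118095 and 119552, and the growth receptor kinase AXL 38317 and 32918 against 35375 and 27395. Of the epithelial markers, KRT7 had 2284 and 1979 against 383 and 301, KRT8 3504 and 3023 against 2452 and 2438, KRT18 2018 and 1670 against 2368 and 2321, and EPCAM 333 and 398 against 91.2 and 227. Estrogen receptor ESR1 was at 0 and 1.94 in the parental libraries and 6.72 and 26.5 in the brain metastatic libraries. ERBB2 was at 955 to 1239. No row was found for the 5 leukocyte and 4 fibroblast markers looked for. Of 4 endothelial markers, KDR had 53.8 and 77.6 in the parental libraries against 520 and 603 in the brain metastatic libraries. PECAM1 had 70.8 and 146 against 193 and 218, CDH5 0.853 and 3.88 against 4.80 and 0, and VWF had no row. Of 5 markers of glia and neurons, only MBP had a row, at 2328 and 2550 against 3751 and 3999. The part of these differences in the results below was not tested.

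Start regions are printed for genes the results turn on, because the neighbouring genes LRRC61 and ACTR3C moved together and CAV2 and CAV1 moved together, while IGFBP3 is a short arm gene that moved the other way. Each runs 5′ to 3′ from 250 bases before to 50 bases after the annotated start, from RefSeq, build GRCh38.p14. Capitals mark the GC box, GGGCGG on either strand (CCGCCC as printed), the core of the binding motif of the SP transcription factors. LRRC61 lies on the plus strand at chr7:150323105-150323404 and ACTR3C on the minus strand at chr7:150323496-150323795. CAV2 lies on the plus strand at chr7:116499488-116499787, CAV1 on the plus strand at chr7:116524759-116525058 and IGFBP3 on the minus strand at chr7:45921223-45921522.
LRRC61: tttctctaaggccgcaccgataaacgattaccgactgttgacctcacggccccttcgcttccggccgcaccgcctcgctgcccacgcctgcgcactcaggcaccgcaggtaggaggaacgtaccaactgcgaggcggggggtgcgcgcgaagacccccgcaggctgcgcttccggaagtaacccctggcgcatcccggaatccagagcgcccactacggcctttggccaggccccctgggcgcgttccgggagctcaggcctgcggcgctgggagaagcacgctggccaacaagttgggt
ACTR3C: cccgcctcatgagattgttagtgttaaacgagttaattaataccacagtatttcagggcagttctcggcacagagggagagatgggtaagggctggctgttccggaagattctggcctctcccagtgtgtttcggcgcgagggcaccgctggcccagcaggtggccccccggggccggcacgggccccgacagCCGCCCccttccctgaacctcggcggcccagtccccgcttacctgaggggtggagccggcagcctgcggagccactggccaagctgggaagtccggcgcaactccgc
CAV2: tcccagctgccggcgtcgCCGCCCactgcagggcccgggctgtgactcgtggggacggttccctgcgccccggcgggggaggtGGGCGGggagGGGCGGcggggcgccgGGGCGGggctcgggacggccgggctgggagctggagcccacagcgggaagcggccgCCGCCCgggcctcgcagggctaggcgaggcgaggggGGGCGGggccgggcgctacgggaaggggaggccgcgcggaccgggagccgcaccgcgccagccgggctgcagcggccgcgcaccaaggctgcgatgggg
CAV1: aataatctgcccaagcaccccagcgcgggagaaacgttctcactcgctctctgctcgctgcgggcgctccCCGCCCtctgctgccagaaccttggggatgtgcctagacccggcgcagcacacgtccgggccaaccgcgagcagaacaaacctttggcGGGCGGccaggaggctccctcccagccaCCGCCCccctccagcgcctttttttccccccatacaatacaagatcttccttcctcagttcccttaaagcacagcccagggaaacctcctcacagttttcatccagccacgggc
IGFBP3: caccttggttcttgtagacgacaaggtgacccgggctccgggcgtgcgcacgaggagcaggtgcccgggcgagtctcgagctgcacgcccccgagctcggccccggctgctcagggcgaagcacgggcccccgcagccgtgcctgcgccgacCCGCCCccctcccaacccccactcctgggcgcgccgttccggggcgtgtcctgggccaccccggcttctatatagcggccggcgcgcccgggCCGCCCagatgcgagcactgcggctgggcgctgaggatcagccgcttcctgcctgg
The starts of LRRC61 and ACTR3C are 190 bases apart on opposite strands. LRRC61 held 0 GC boxes, ACTR3C 1, CAV2 6, CAV1 3 and IGFBP3 2, and TATAAA was found in none of these windows. A GC box was in 45.0% of 35116 start regions of the table, and in 44.6% when only the first listed region of each of 27305 genes was counted. Among members with a start region, it was in 68.3% of 145 on the short arm and 70.5% of 329 on the long arm. These sets are unlike, because members have a mean of at least 10 and the other start regions were not limited by level. The median number of CG pairs was 27 for members of each arm and 14 for all start regions. Genes of like level on other chromosomes were not counted, so no enrichment on chromosome 7 can be read from these shares. Of 63 long arm members that fell, 51 (81.0%) had one, and of 9 that rose, 5. The median log2 difference was -0.59 for 232 long arm members with a GC box and -0.35 for 97 without. On the short arm it was also lower with a GC box, at -0.08 for 99 members against 0.17 for 46 without. The lower median with a GC box was thus not particular to the long arm. These are counts of letters in windows and were not tested.

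RNA from the long arm of chromosome 7 was lower in MDA-MB-231Br at the median, and RNA from the short arm was close to that of the parental line. The median difference (brain metastatic minus parental, as log2 of the normalized value plus 1, a scale that shrinks the changes of genes with few reads) was -0.49 over 460 long arm genes and -0.06 over 232 short arm genes, against 0.01 over all 14424 tested genes. The long arm median stands for 71.1% of the parental level. Against the parental mean, brain metastatic library A had a long arm median of -0.49 and library B -0.46, while the 2 parental libraries differed by 0.01 and the 2 brain metastatic libraries by 0.04 at the median. The middle of the long arm genes ranged from -0.92 to -0.02 (quartiles), and 347 of 460 (75.4%) were below 0. On the short arm 126 of 232 (54.3%) were below 0, with library medians of -0.04 and 0.02. Without brain metastatic library A the short arm median was 0.02, so its sign rests on that library. Arms were chosen for comparison with earlier results known, so no test is given for these medians.

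Both brain metastatic libraries lay below both parental libraries in 262 long arm genes (57.0%), against 29.7% of all tested genes, and above both in 50 (10.9%), against 31.7%. On the short arm 67 genes lay below and 67 above. With limma's moderated test and Benjamini-Hochberg adjustment over all tested genes at a threshold of 0.05, 14.4% of all genes were called, 8.61% higher and 5.8% lower. Among the long arm genes 77 fell (16.7%) and 15 rose (3.26%), with 368 not passing. Among the short arm genes 5 fell (2.16%) and 15 rose (6.47%), with 212 not passing. Over all tested genes, fewer were called when a parental library was left out and more when a brain metastatic library was. The counts that follow were not separated from this shift. With all 4 libraries, 112 chromosome 7 genes passed. Leaving out parental library A kept 19 of these, and leaving out parental library B kept 21. Leaving out brain metastatic library A kept all 112, and library B all but SSBP1 and TCAF2. The long arm decreases that passed ranged from -4.30 (LRRC61) to -0.77 (NCAPG2), and the increases from 1.04 (CADPS2) to 3.74 (FEZF1-AS1). No called gene changed direction in these 4 fits, and 15 passed in each of them, 12 higher and 3 lower.

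**Figure D1:**
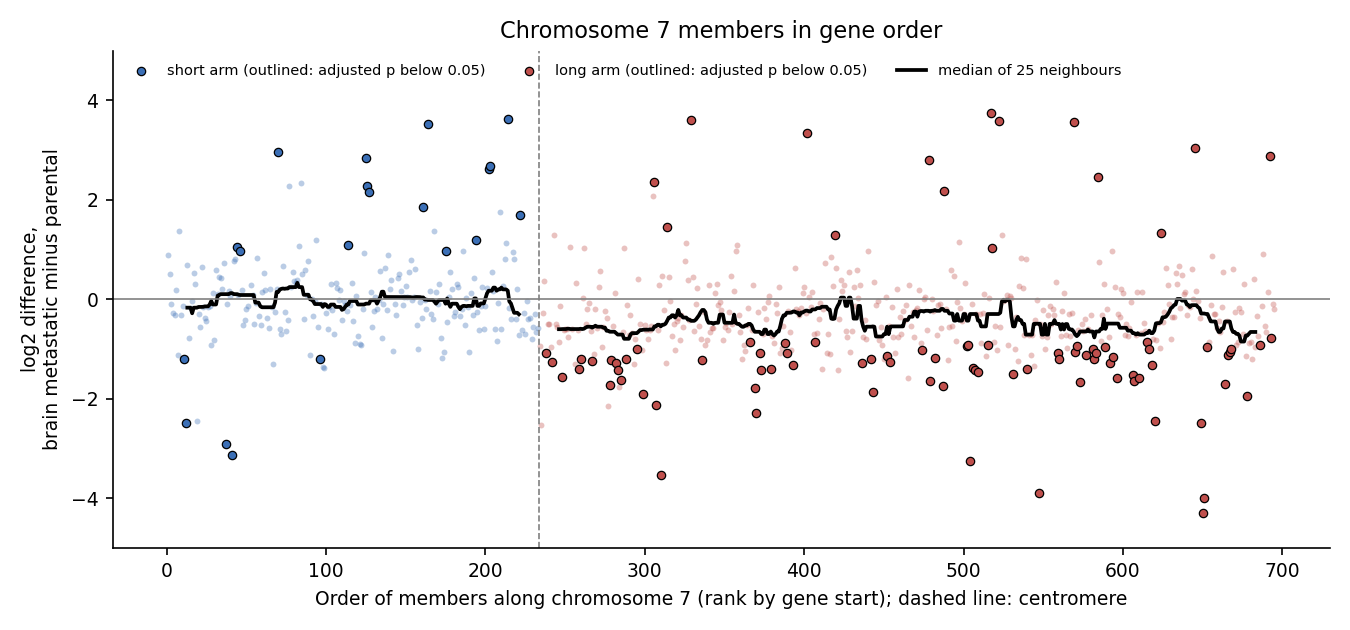
Log2 difference (brain metastatic minus parental, y axis) of each tested member by its order along chromosome 7 (x axis), short arm left of the dashed centromere line, outlined where the adjusted p was below 0.05, with the median of 25 neighbours as a black line. The long arm line stays mostly below 0 and its lowest window median is -0.85, while the short arm line runs between -0.30 and 0.33.

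The long arm also held a smaller share of the reads. It had 2.96% and 2.91% of all reads in the parental libraries and 2.00% and 2.20% in the brain metastatic libraries, and the groups did not overlap. The short arm had 2.26% and 2.20% against 2.30% and 2.16%, and there the groups overlapped. The 95% binomial interval of the first of these shares was 2.96% to 2.97%, which covers counting error only. By gene class the long arm median was -0.49 over 367 protein-coding genes, -0.35 over 56 pseudogenes and -0.61 over 37 noncoding RNA genes. On the short arm it was -0.01 over 189 protein-coding genes, -0.39 over 26 pseudogenes and 0.43 over 17 noncoding RNA genes, so pseudogenes were low on both arms. By mean level the long arm median was -0.48 in the lowest tertile, -0.43 in the middle tertile and -0.57 in the highest tertile. In the highest tertile 33 of 124 long arm genes fell (26.6%) and 0 rose. Of all tested genes in that tertile, 5.59% fell and 5.95% rose. Short arm medians in the same order were -0.29, 0.17 and -0.04.

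Transcript length moved with the difference in the whole table. Long arm medians were -0.68, -0.50 and -0.25 for the shortest, middle and longest tertile of transcripts, beside -0.20, 0.06 and 0.17 for all tested genes in the same tertiles. In each length tertile the long arm lay below all genes. Libraries of a line also differed from each other by length. Library B minus library A was -0.34 at the median for the shortest and 0.24 for the longest tertile of all genes in the brain metastatic line, and 0.21 and -0.13 in the parental line. The part of length in single calls was not tested.

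**Figure D2:**
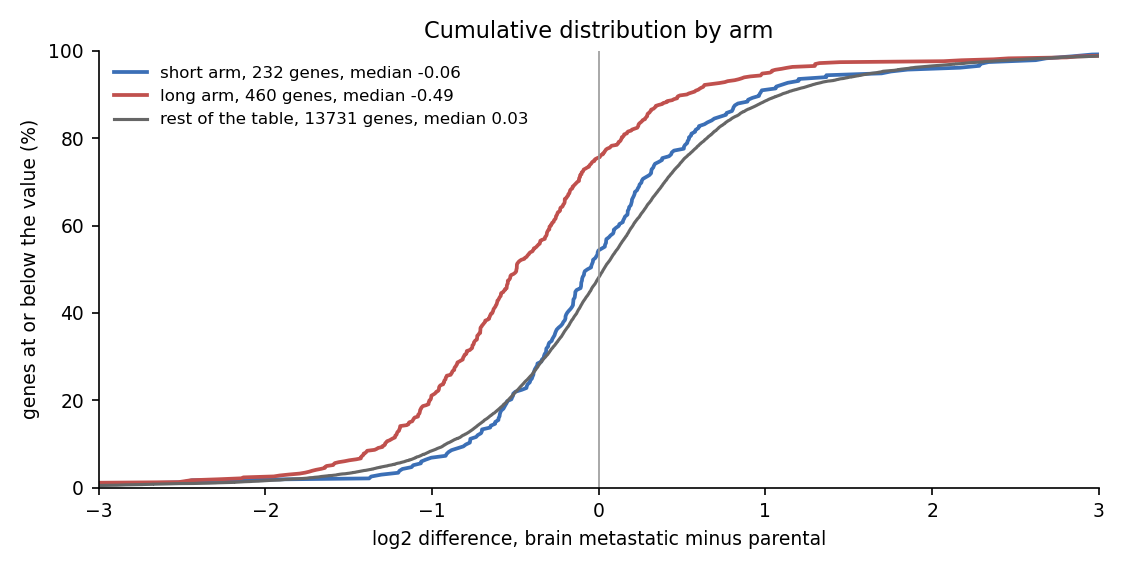
Cumulative share of genes by log2 difference for the short arm, the long arm and the 13731 tested genes outside chromosome 7. The long arm curve lies to the left, with 75.4% of its genes below 0 against 48.1% outside chromosome 7.

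Position along the arms was read from gene order in blocks of about 20 neighbouring genes. On the long arm 22 of 23 blocks had a median below 0. Taking each brain metastatic library alone, 22 blocks were below 0 in both, though not the same 22. The lowest was -0.71, from AC090114.2 to NRF1, and the highest 0.02, from CASTOR3 to SRRT. On the short arm 6 of 12 blocks were below 0, and the range was -0.55 to 0.25. The lowest short arm block, from PSPHP1 to ZNF716, is the one next to the centromere. It is the remainder of the arm and holds only 13 genes, and the next lowest short arm block was at -0.16. In sliding windows of 25 genes, 428 of 436 long arm windows (98.2%) and 118 of 208 short arm windows (56.7%) had a median below 0, against 45.2% of 13123 windows on other chromosomes. Windows below -0.3, a limit chosen after the values were seen, made up 73.2%, 0.481% and 12.7%. Windows on other chromosomes ranged from -1.26 to 1.48, and long arm windows from -0.85 to 0.03. Neighbouring windows share genes, so the shares above are not independent counts.

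**Figure D3:**
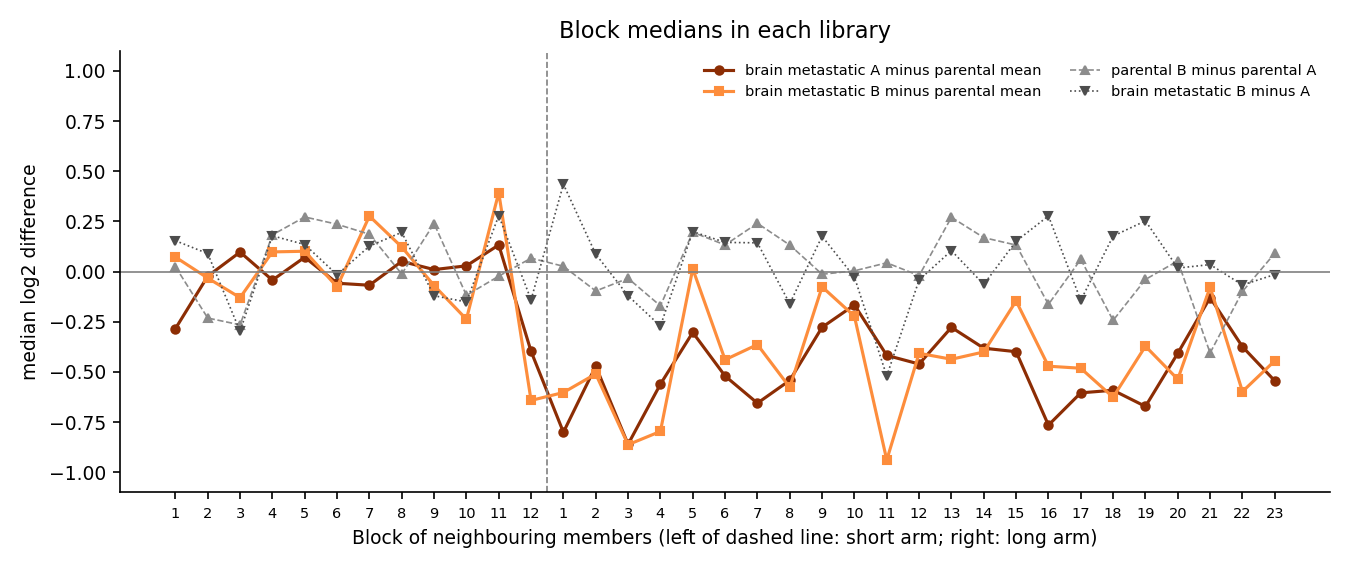
Median log2 difference (y axis) of each block of neighbouring genes in order along the short and long arm (x axis), for each brain metastatic library against the parental mean (solid lines) and between the 2 libraries of each line (broken lines). On the long arm both solid lines are below 0 in 22 of 23 blocks, while the broken lines vary around 0.

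The lowest window median was -0.85, shared by 3 overlapping windows near the end of the long arm, the first of which ran from ABCF2 to LMBR1 (-0.77 in brain metastatic library A and -0.57 in library B), and 21 of the 25 genes in that first window were below 0. Of these, 6 fell: RHEB, PRKAG2, GALNT11, SMARCD3, AC144652.1 and LMBR1. RHEB, a small GTPase that activates mTORC1, had 7420 and 10185 in the parental libraries and 4585 and 3510 in the brain metastatic libraries (log2 difference -1.12 ± 0.26 SE, limma adjusted p = 0.0263). PRKAG2, a regulatory subunit of the energy sensor AMPK, had 4553 and 5749 against 2731 and 2184 (-1.07), and GALNT11, which starts O-linked sugar chains, 1651 and 2103 against 994 and 865 (-1.01). These 3 neighbours did not overlap between the lines, and none of them passed once either parental library was left out. The window from BCL7B to HIP1, which takes in genes of the Williams region, had a median of -0.79, and was lower than those windows when each brain metastatic library was taken alone, at -0.95 for A and -0.91 for B; 8 of its genes fell. The highest window, from ICA1 to RAPGEF5 on the short arm, had a median of 0.33 with 10 of 25 genes below 0. Its median was 0.31 in brain metastatic library A and 0.17 in library B. ICA1, an islet cell autoantigen of secretory vesicles, was its one call, at 57.2 and 71.8 against 426 and 599. In library B alone other short arm windows were higher, such as 0.36 from OGDH to EGFR.

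Called genes that lie next to each other formed 16 runs of lower genes with 37 members on the long arm, the longest of 3, and 1 run of higher genes. The short arm had 2 runs of higher and 1 of lower genes. Runs were not counted on other chromosomes, so these counts have no background. On the long arm 16.7% of genes fell, against 5.8% of all tested genes, and more calls give more neighbouring calls. Whether calls lay together more than their number gives was not tested. One run held NUP205, a nuclear pore scaffold protein, STMP1, a small mitochondrial protein, and MTPN, an actin capping inhibitor, and another SSBP1, a mitochondrial DNA binding protein, GSTK1, a glutathione transferase, and CASP2, a caspase. MTPN had 16188 and 17383 against 9487 and 6609. A further run held MDFIC, TES and AC002066.1, followed shortly by the caveolins. CAV1, the main coat protein of caveolae, was at 27966 and 27283 in the parental libraries and 10799 and 9773 in the brain metastatic libraries (-1.43 ± 0.22 SE, limma adjusted p = 0.00523), and CAV2 at 5052 and 7607 against 3109 and 1801 (-1.39). None of these 11 genes passed when parental library A or B was left out, with adjusted p up to 0.319. TES, AC002066.1 and CAV2 overlap in position, and without a stated strand setting their reads cannot be told apart.

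LRRC61, ZBED6CL and TSPAN33, all on the long arm, had the largest decreases among the genes the naming rule took. LRRC61, a leucine-rich repeat protein, was at 1296 and 1281 in the parental libraries and 73.9 and 56.2 in the brain metastatic libraries (-4.30 ± 0.28 SE, limma adjusted p = 0.000194). ZBED6CL, which overlaps it, was at 455 and 326 against 24.0 and 22.3 (-4.00), and its other neighbour ACTR3C, an actin-related protein, at 110 and 96.0 against 18.2 and 17.0 (-2.48). Lines that do not overlap in level were a condition for naming these 3. Because the genes overlap in position, their values are not independent. TSPAN33, a tetraspanin, fell from 155 and 139 to 10.6 and 7.42 (-3.90). Other large decreases were PDK4 (-2.28), a kinase that restrains pyruvate oxidation, HIP1 (-1.91), an endocytic adaptor, PON2 (-1.79), an antioxidant lactonase, LAMB1 (-1.74), a laminin chain, SRRM3 (-2.13), a splicing factor of neurons, and IFT22 (-1.86), a protein of ciliary transport. The noncoding genes AC002066.1 (-3.26), AC093673.1 (-2.45) and AC144652.1 (-1.95) also fell. AC002066.1 was -2.53 with brain metastatic library A alone and -3.99 with library B alone. Of these 13 genes, LRRC61, ZBED6CL and TSPAN33 passed whichever parental library was left out, HIP1 and LAMB1 without parental library B but not A, and the other 8 in neither of these fits.

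The 15 long arm genes that rose had parental levels of 0.853 to 212, and only 1 pair of them were neighbours. KIAA1324L, a membrane protein, was at 80.2 and 98.9 in the parental libraries and 939 and 1289 in the brain metastatic libraries (3.61 ± 0.29 SE, limma adjusted p = 0.000539). GPR37, an orphan receptor of neural tissue, was at 5.97 and 11.6 against 104 and 121 (3.59). PIK3CG, a catalytic phosphoinositide 3-kinase subunit typical of leukocytes, was at 51.2 and 47.5 against 330 and 374 (2.81). Libraries that do not overlap were a condition for naming these genes, and 31.7% of all tested genes were apart in this direction. PTPRN2 (2.87), a protein of dense core vesicles, NRCAM (2.18), a neuronal cell adhesion molecule, PTN (2.46), a secreted growth factor, ZNF467 (3.05), the antisense RNA FEZF1-AS1 (3.74) and PLXNA4 (3.56), a semaphorin receptor, also rose. PLXNA4 was 2.42 with brain metastatic library A alone and 4.70 with library B alone. Its call was lost when parental library A or B was left out, that of NRCAM without parental library B, and those of ZNF467 and PTN without parental library A.

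On the short arm the clearest changes were increases. IGFBP3, which binds insulin-like growth factors outside the cell, was at 868 and 898 in the parental libraries and 6565 and 4922 in the brain metastatic libraries (2.69 ± 0.24 SE, limma adjusted p = 0.000682). Its neighbour IGFBP1 was at 414 and 439 against 2409 and 2870 (2.62). CREB5, a CREB family transcription factor, was at 129 and 155 against 986 and 1046 (2.84), and its neighbours CPVL (2.29), a carboxypeptidase, and CHN2 (2.17), a Rac GTPase activating protein, rose with it. AMPH, an endocytic protein of nerve terminals, was at 79.3 and 98.0 against 1199 and 868 (3.52), and LINC01446 and ELMO1, an activator of Rac signalling, rose as well. CPVL and CHN2 overlap in position, as do GPER1 and C7orf50, and SLC29A4 and TNRC18, so their reads may be shared. Short arm genes that fell included RADIL, a Rap effector, from 100.7 and 86.3 to 9.60 and 13.8 (-2.91), SLC29A4, a monoamine transporter (-3.13), and GPER1, an estrogen-responsive G protein-coupled receptor (-2.49). IGFBP3, IGFBP1, CREB5, CPVL, AMPH, ICA1 and LINC01446 passed in every fit that left out a library, while CHN2, ELMO1, RADIL, SLC29A4 and GPER1 did not pass when parental library A or B was left out.

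**Figure D4:**
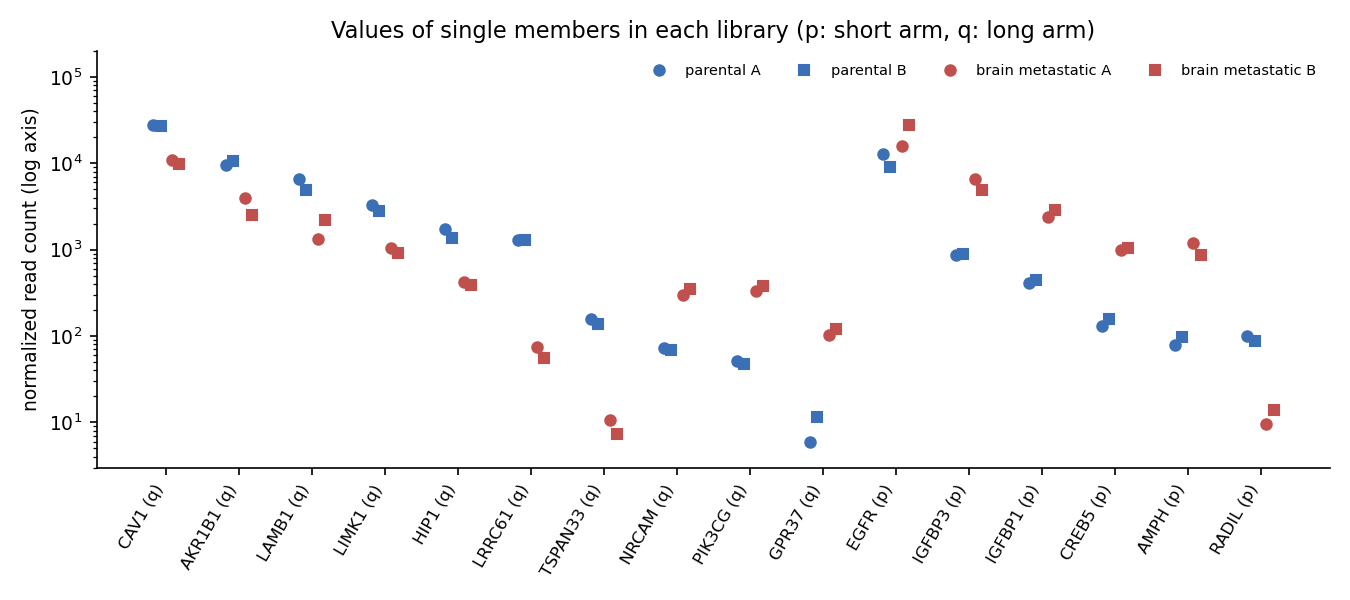
Normalized level in each library, on a log axis, of 16 chromosome 7 genes (p short arm, q long arm); blue points are parental and red points brain metastatic libraries. For LRRC61 the brain metastatic libraries (73.9 and 56.2) are far below the parental ones (1296 and 1281), and for IGFBP3 they are far above.

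Genes at the cell surface and in signalling were grouped in lists of known function, drawn up with earlier results of these data known. Over the 293 tested members of all 18 lists, 5.12% rose and 13.7% fell, near the 4.34% and 11.8% of all tested chromosome 7 genes, beside 8.61% and 5.8% of all genes. Counts in single lists are small and describe those genes. Of 14 tested members of a list of surface receptors and other membrane proteins, GPR37 rose and CAV1, CAV2, TSPAN33 and GPER1 fell. The caveolins and TSPAN33 are not receptors. In this list the 9 long arm members had a median of -0.64 and the 5 short arm members 0.76. Its share called was 35.7%, against 14.4% of all genes. EGFR, at 12650 and 9027 against 15626 and 27701, was 0.96 with a limma adjusted p of 0.0807 and did not pass. Of 33 kinases and small GTPase regulators, CHN2, ELMO1 and PIK3CG rose and LIMK1, PRKAR2B, RHEB and PRKAG2 fell (21.2% called), with medians of 0.27 on the short arm and -0.55 on the long arm. LIMK1, which phosphorylates cofilin, was at 3303 and 2781 against 1035 and 922 (-1.63). Of 15 actin and focal adhesion genes, FSCN1, a bundling protein, rose, and LIMK1, TES and CAPZA2, a capping protein subunit, fell (26.7% called); all 8 long arm members were below 0. Among 11 secreted ligands and binding proteins IGFBP1, IGFBP3 and PTN rose and 0 fell, and among 9 semaphorin and guidance genes, all on the long arm, NRCAM and PLXNA4 rose with a list median of 0.38. Of 10 matrix and proteolysis genes CPVL rose and LAMB1 fell, of 3 claudins and mucins CLDN4 fell, and of 16 transporters and channels SLC29A4 fell (6.25%, below the background). Of the 24 called genes in these lists, 8 passed when parental library A was left out and 9 when parental library B was.

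Of 21 genes listed under DNA replication, repair and mitosis, 0 rose and 5 fell: RFC2, DBF4, MCM7, NUP205 and NCAPG2. NUP205 in this list is a nuclear pore protein. All 5 are on the long arm, where the list median was -0.81. The share that fell was 23.8%, against 11.8% of all chromosome 7 genes. MCM7, a subunit of the replicative helicase, was at 8548 and 6751 against 4539 and 3821 (-0.87, limma adjusted p = 0.0441). DBF4, the activator of the replication kinase CDC7, was at 2728 and 3155 against 1247 and 1283 (-1.21). The levels of both genes were separate between the lines, as were those of 29.7% of all tested genes in this direction. Of 33 chromatin regulators and transcription factors, CREB5 and GLI3, an effector of hedgehog signalling, rose on the short arm, and SMARCD3, a SWI/SNF subunit, fell on the long arm; these are 9.09% of the list, below the 14.4% of all genes. Of 18 genes of innate immunity, PIK3CG rose and TRIM24 and ZC3HAV1L fell (16.7% called, near that background). Of 34 zinc finger genes, ZNF713 and ZNF467 rose and ZNF680 and ZNF273 fell (11.8% called, also near it), and the 30 on the long arm had a median of -0.13. HOXA13, the only member of the homeobox A cluster above the limit, was at -0.74 and did not pass. Of these 15 called genes, 2 passed when parental library A was left out and 3 when parental library B was.

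Long arm genes listed under metabolism and under mitochondria had negative medians, -0.62 over 21 and -1.32 over 9. Of 18 genes listed under mitochondrial respiration and ribosome, 0 rose and 6 fell: SDHAF3, BRI3, ATP5MF, CHCHD3, NDUFB2 and MRPS33. The share that fell was 33.3%, against 5.8% of all genes and 11.8% of all chromosome 7 genes. BRI3, though in this list, is not a gene of respiration or of the ribosome. All 9 long arm members of that list were below 0, and the median was -0.27 for its 9 short arm members. NDUFB2, a subunit of respiratory complex I, was at 1368 and 2338 in the parental libraries and 771 and 425 in the brain metastatic libraries (-1.64, limma adjusted p = 0.0234). Of the 9 long arm members, 5 were in the shortest tertile of transcripts, the class that was lower in brain metastatic library B than in library A, and their median was -1.32; the part of length was not tested. Of 30 genes of amino acid, sugar and lipid metabolism, PON2, PDK4, MEST, AKR1B1 and GALNT11 fell (16.7%). AKR1B1, an aldose reductase, was at 9431 and 10480 against 3934 and 2497 (-1.67). Of 25 genes listed under chaperones and protein turnover, DNAJC30, BUD31 and FBXL13 fell. BUD31 in this list is a splicing protein. The share of 12.0% is near the 11.8% of all chromosome 7 genes. Of 9 imprinted genes, PEG10 and MEST fell (22.2%). Of 20 Williams region genes, 18 were below 0 with a median of -0.75, and VPS37D, DNAJC30, ABHD11, CLDN4, LIMK1 and RFC2 fell (30.0%, against 16.7% of all long arm genes). These lists share members. Of their 20 called genes, NDUFB2 and MRPS33 passed when parental library A was left out, and LIMK1 when parental library B was.

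Members with very high levels included ACTB, HNRNPA2B1, CALU and ANLN, and none of these 4 passed. ACTB, the cytoplasmic actin, was at 124346 and 100824 against 138829 and 102315 (0.09). HNRNPA2B1, an RNA binding protein, was 0.34, CALU, a calcium binding protein of the secretory pathway, -0.71, and ANLN, a scaffold of cytokinesis, -0.38. Among the 20 most abundant genes of the long arm, 15 were below 0 and 7 fell, with a median of -0.66, and among those of the short arm 13 were below 0 and 0 passed, with a median of -0.09. Of all tested genes in the highest tertile of mean level, 51.4% were below 0 and 5.59% fell.

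**Figure D5:**
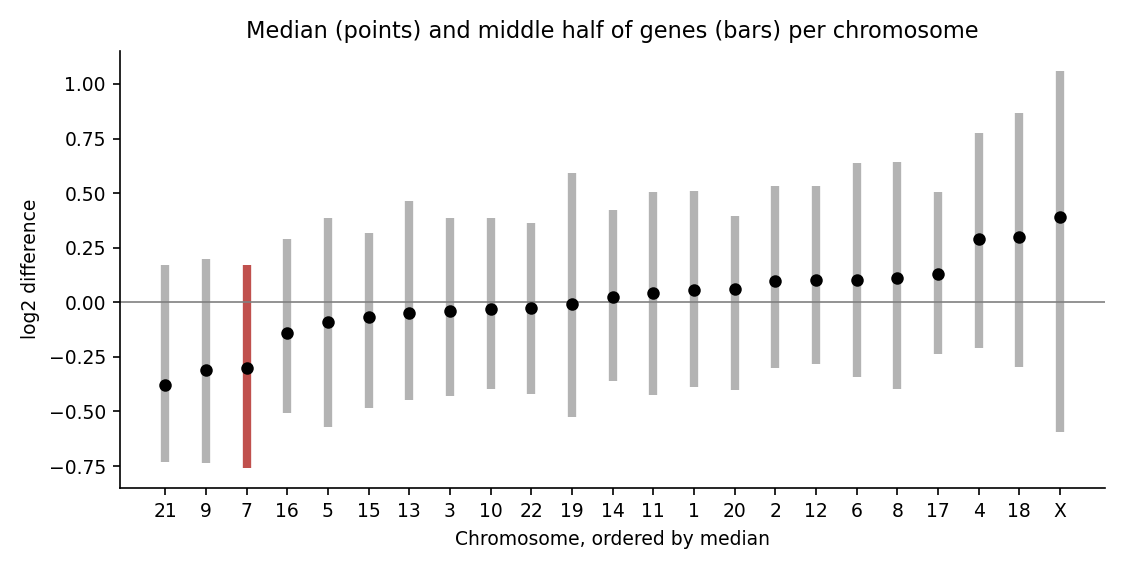
Median (points) and interquartile range (bars) of the log2 difference of tested genes on each of 23 chromosomes, ordered by median, with chromosome 7 in red. Chromosome 7 is at -0.30, above 21 at -0.38 and 9 at -0.31. Its long arm alone, not drawn, is at -0.49, and no other chromosome was split by arm.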

How the data were processed

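RNA-seq libraries of the 2 lines were compared. The deposited table holds 1 value per gene and library, a normalized read signal whose columns, judged by the values, are reads multiplied by 1 factor per library; HISAT2, featureCounts, DESeq2 and the build GRCh37 are named in the submitters' processing notes, with versions and strand setting not given in the sources used here. Each column is made of whole multiples of 1 step, so 100% of values gave whole reads within 0.01. Headers name only the line. Columns of per-sample values not used: 0. The 67 unnamed rows (0.031% to 0.0369% of reads) were left out.

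Genes were kept by filterByExpr of edgeR 4.0.16 (minimum count 10, total 15), leaving 14424 and removing 855. limma 3.58.1 with trend was fitted to log2(value + 1) in R 4.3.3, with p-values adjusted over all tested genes; edgeR on recovered reads, which called 2228 genes against 2079, and DESeq2 1.42.0 were alternatives. The test was chosen because the unit was a signal and not counts. Gene order and arms came from GENCODE release 29, on another build than the files', so no coordinates of it are printed; 2 members were placed by an older or newer symbol.

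Members, lists and windows were chosen with earlier results of these data known. Genes are named by rule: the 15 largest increases and decreases among calls with a mean of at least 50 in the higher line and libraries not overlapping, up to 3 calls per list and direction, the 5 highest means, and members of the extreme windows and runs. Genes named outside it were chosen after their values were seen. A member that the rule takes is not reported here. Scripts were tested on simulated data.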

Additional observations from a re-analysis of the deposited data

How the results depend on the processing

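Of the alternatives, 47 values stayed within their limits, 27 moved and 2 reversed; 2 alternatives (members without an overlap, and longest transcript of at least 2000 bases) were chosen after seeing the data, and the cause of each move was not tested. The count of 112 called genes was 26 without the filter on low counts and 20 to 275 when 1 library was left out. For the 30 genes called higher these were 15 and 13 to 88; for the 82 called lower, 11 and 7 to 187, with 125 by DESeq2 on recovered reads and 53 among members that overlap no other gene. edgeR called 129 members. All genes tested gave 2910 calls by DESeq2, 586 without the filter, and 421, 429, 5257 and 3147 without parental A, parental B, brain metastatic A and brain metastatic B. The long arm median was -0.52 with TMM scaling, -0.38 for longest transcripts of at least 2000 bases and -0.49 to -0.46 with 1 library left out. The short arm median of -0.06 was -0.017 at a mean of at least 50, -0.014 for protein-coding members, -0.010 without overlapping members, 0.041 for the longer transcripts, -0.066 to 0.021 with 1 library left out, and 0.021 without brain metastatic A. The highest window was 0.15 in windows of 41 genes, and the lowest median of -0.85 became -1.21 in windows of 15, -0.71 in windows of 41 and -0.98 to -0.85 with 1 library left out.

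No paired analysis was possible because the columns carry no replicate numbers. With 2 libraries per line, small differences are not detectable for low genes.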
